A study of Homo sapiens with 4 samples.

Results

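The genes described here encode 10 proteins of the nucleolus and of the small nucleolar ribonucleoprotein particles (snoRNPs): NCL, NPM1, FBL, NOP56, NOP58, DKC1, NOLC1, NOP2, NOP14 and RRP12. Each gene was followed through the peaks listed under its Ensembl identifier in the 2 peak lists of an IGF2BP2 binding experiment. Sense peaks are those whose main region was coding sequence (CDS), a UTR, a noncoding exon or an intron. Peaks classed as antisense were counted apart, and intergenic ones were not used. The 10 genes are 10 of 20428 gene identifiers with a sense peak in at least 1 list. They held 61 of 74237 sense peaks in replicate 1 and 86 of 77288 in replicate 2.

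The experiment was iRIP-seq, a UV-crosslinking RNA immunoprecipitation followed by sequencing, with an anti-IGF2BP2 antibody in Jurkat cells, an established leukemic T cell line. IGF2BP2 is an RNA-binding protein that reads N6-methyladenosine (m6A) in messenger RNA. The series held 2 IGF2BP2 immunoprecipitation libraries and 2 input libraries, all from Jurkat cells of a single line for which the labels give no treatment, and only the immunoprecipitation libraries were used here. The labels do not say whether the libraries came from separate cultures, so a spread between them may be technical.

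The nucleolus is where ribosomal RNA is transcribed, cut, chemically modified and assembled with ribosomal proteins. Box C/D snoRNPs place methyl groups on the ribose of ribosomal RNA and box H/ACA snoRNPs turn uridine into pseudouridine, each guided to its site by a small nucleolar RNA (snoRNA). In human cells most snoRNAs are cut from introns of protein-coding host genes, and several of the hosts encode nucleolar proteins themselves. A peak on such a gene can therefore lie on the messenger RNA or on a small RNA hosted by it.

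The sequences shown are those where a peak could be set against a known RNA feature, and they come from RefSeq on GRCh38.p14. The NPM1 transcript start at chr5:171387849-171387878 on the plus strand is shown because a sense peak lay on it in both replicates. Its capitals mark the unbroken run of pyrimidines with which the transcript begins, 8 bases long. The mature products of the miRNA gene MIR1292 in NOP56, at chr20:2652779-2652803 and chr20:2652819-2652838 on the plus strand, are shown because a peak of replicate 2 lay across this miRNA, and their capitals mark the seed, bases 2 to 8.
NPM1 transcript start: CTTTCCCTggtgtgattccgtcctgcgcgg
hsa-miR-1292-5p: uGGGAACGgguuccggcagacgcug
hsa-miR-1292-3p: uCGCGCCCcggcucccguuc
Of 35116 transcript starts in the RefSeq table, 643 (1.83%) opened with at least as many pyrimidines as NPM1. A pyrimidine run at the start of a transcript is a description of these letters and says nothing about binding.

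All 10 genes had a sense peak in both replicates, against 59.5% of all gene identifiers. Counting exonic peaks alone, 7 of the 10 did, and the share of all identifiers under this rule was not computed. With a height of at least 10 tags in both replicates, 3 of 10 genes remained, against 3.96% of all identifiers. These were NCL, NPM1 and NOP56. Both backgrounds include identifiers with no peak in CDS, and the 10 genes were chosen with earlier results of these data known. Transcript abundance was not compared. The height of a peak is the authors' signal in tags, not adjusted for the depth of a library, which is unknown here. The lowest height listed was 4 tags in replicate 1 and 5 in replicate 2. The number of sense peaks per gene ran from 2 to 11 with a median of 6.5 in replicate 1, and from 3 to 16 with a median of 7.5 in replicate 2. Over all identifiers with a peak in both lists the median was 3 in each replicate.

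**Figure D1:**
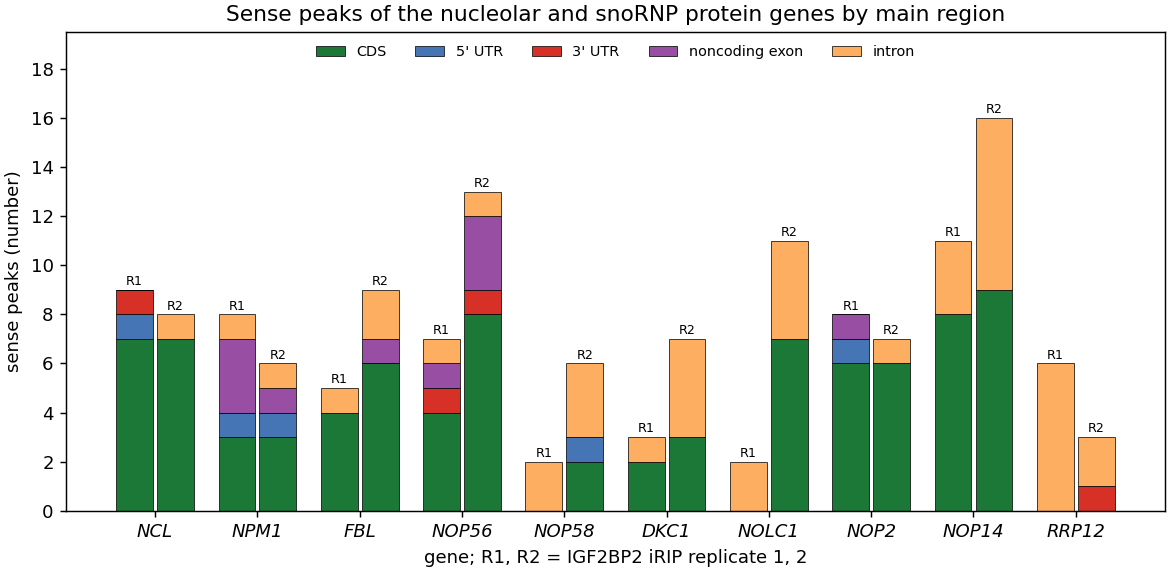
Number of sense peaks (vertical axis) of each of the 10 genes in IGF2BP2 iRIP replicate 1 (R1) and replicate 2 (R2), coloured by the region that held most of each peak. CDS made up 34 of 61 peaks in replicate 1 and 51 of 86 in replicate 2, whereas all 6 peaks of RRP12 in replicate 1 were mainly intronic.

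Most sense peaks of these genes lay mainly in coding sequence. The CDS share was 55.7% in replicate 1 (34 of 61 peaks, 95% Wilson interval 43.3 to 67.5%) and 59.3% in replicate 2 (51 of 86, 48.7 to 69.1%), with a mean of 57.5% ± 2.52 (SD, n = 2). Over all sense peaks, CDS made up 19.9% in replicate 1 and 25.6% in replicate 2. Many identifiers had no peak in CDS at all. When they were left out, the share over the remaining identifiers was 32.1% in replicate 1 and 36.5% in replicate 2. In 5′ UTRs there were 3 of 61 and 2 of 86 peaks, and in 3′ UTRs there were 2 in each replicate. Noncoding exons held 5 peaks in each replicate. Introns held 17 peaks in replicate 1 (27.9%) and 26 in replicate 2 (30.2%). The shares of the UTR, noncoding exon and intron classes over all sense peaks were not computed, so these counts do not set the genes apart.

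Many peaks called intronic reached into an exon. Of the intronic peaks, 9 of 17 in replicate 1 and 19 of 26 in replicate 2 also covered coding bases. Counted the other way, 26 of 48 peaks with coding bases in replicate 1 (54.2%) and 46 of 76 in replicate 2 (60.5%) crossed into an intron. These shares lay near the 56.2% and 59.2% found over all sense peaks with coding bases and thus did not set these genes apart. Peaks were listed in bins of 50 nt, and 51 of 61 and 72 of 86 had the shortest length of 51 nt.

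Replicate 2 covered 28 of the 61 peaks of replicate 1 (45.9%, Wilson interval 34.0 to 58.3%), and replicate 1 covered 29 of the 86 peaks of replicate 2 (33.7%, 24.6 to 44.2%). The corresponding shares over all sense peaks were 16.6% and 15.8%. Over all genes, coding peaks were covered more often than sense peaks as a whole. Among peaks mainly in CDS, 19 of 34 (55.9%) and 21 of 51 (41.2%) were covered by the other replicate, beside 45.8% and 35% over all CDS peaks. The Wilson intervals of 39.5 to 71.1% and 28.8 to 54.8% included these background shares, so within CDS the genes were not separated from other peaks at this number of peaks.

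Intronic peaks of these genes were split by whether they touched coding sequence. Those with coding bases were covered by the other replicate at 5 of 9 peaks in replicate 1 and at 5 of 19 in replicate 2, beside 49.6% and 32.6% of such peaks over all genes. Those without coding bases were covered at 0 of 8 and 0 of 7, which allows a share of up to 37.5% and 42.9%. Over all genes 3.28% and 3.58% of intronic peaks without coding bases were covered, which these limits include.

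The overlapping peaks merged into 28 loci shared by both replicates, and 18 of these had the same start and end in both lists. They fell in 7 of the 10 genes, whereas a shared locus was found in 27.6% of all identifiers with a sense peak in both lists. The 10 genes had medians of 6.5 and 7.5 sense peaks, against 3 in each replicate over those identifiers. A larger share of their peaks also lay in CDS than over all sense peaks. The 27.6% was not matched for either. By gene, there were 7 shared loci in NOP14, 5 in FBL, 4 each in NOP56 and NOP2, 3 each in NCL and NPM1, and 2 in NOLC1. NOP58, DKC1 and RRP12 had none, although each had peaks in both lists. Heights were mostly greater in replicate 2, at 23 of 28 loci, with 4 lower and 1 equal. The ratio of replicate 2 over replicate 1 ran from 0.688 to 3.6 with a median of 1.71. At the loci with the same bin in both lists, 16 of 18 were higher in replicate 2, beside 77.2% of identical-bin pairs over all genes. The median ratio was 1.9 at these 18 loci and 1.43 at the identical-bin pairs over all genes. The order of the heights was partly kept, with a Spearman rho of 0.56 over the 28 loci, beside 0.43 over the 8370 identical-bin pairs of all genes. This describes peaks that share libraries and genes and is not a test.

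**Figure D2:**
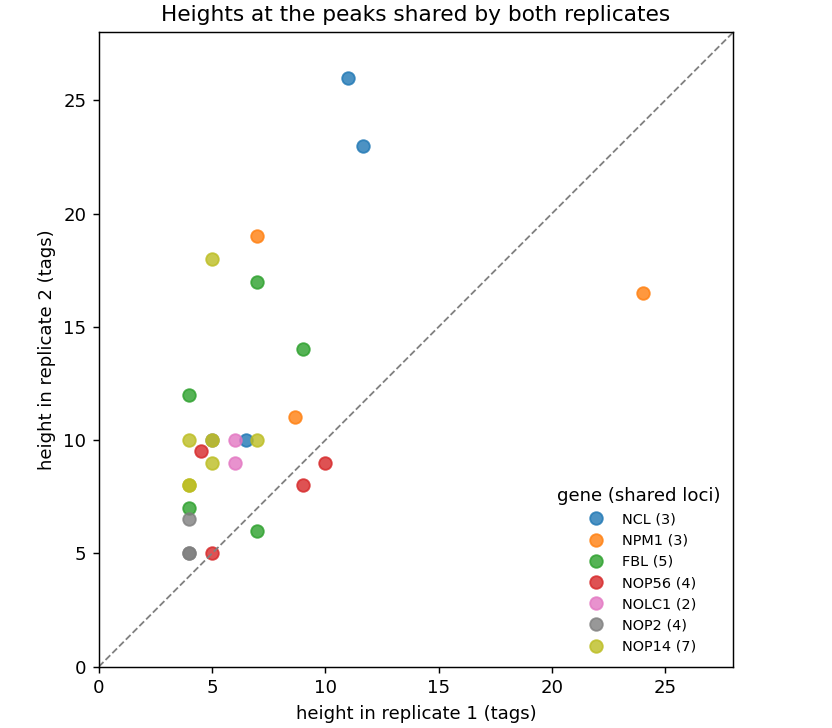
Height of each shared locus in replicate 1 (horizontal axis, tags) and replicate 2 (vertical axis, tags), 1 point per locus, coloured by gene, with the diagonal marking equal heights. Of 28 points, 23 lie above the diagonal, and the NPM1 point at 24 and 16.5 tags lies farthest below it.

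The nucleolar phosphoproteins come first. NCL encodes nucleolin, an abundant RNA-binding protein of the nucleolus that acts in ribosomal RNA transcription and processing. The gene spans 10954 nt at chr2:231453531-231464484 on the minus strand. It had 9 sense peaks in replicate 1 and 8 in replicate 2 (8.5 ± 0.707, SD, n = 2), all but 3 of these 17 peaks mainly in CDS. Its highest shared peak in CDS, at chr2:231460450-231460600, had 11.7 tags in replicate 1 and 23 in replicate 2 (17.3 ± 8.01, SD, n = 2). A second locus at the start of the gene, at chr2:231464300-231464400, had 11 and 26 tags. It was mainly 5′ UTR in replicate 1 and mainly intron in replicate 2, with coding bases in both, and 26 tags was the highest value of any peak described here. The remaining shared locus had 6.5 and 10 tags. The gene also held tall peaks without a partner. In replicate 1 these had 14.5 tags at chr2:231456600-231456700, 13 tags at chr2:231457000-231457050 and 12.8 tags at chr2:231463150-231463350, and the nearest peak of replicate 2 was 950, 600 and 950 nt away. In replicate 2 a peak of 15 tags at chr2:231460750-231460850 had its nearest partner 150 nt away. Such an absence can mean that no peak was called or that it was removed because it overlapped a peak of the input, and these cannot be told apart from the lists.

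NPM1 encodes nucleophosmin, a histone and ribosome chaperone that shuttles between the nucleolus and the cytoplasm. The gene spans 23785 nt at chr5:171387116-171410900 on the plus strand and had 8 sense peaks in replicate 1 and 6 in replicate 2 (7.0 ± 1.41, SD, n = 2). The peak at chr5:171390050-171390150, in CDS, had 24 tags in replicate 1 and 16.5 in replicate 2 (20.25 ± 5.3, SD, n = 2). Ranked by the lower height of the pair, it led all 28 shared loci. The 5′ UTR peak over the transcript start shown above had 8.67 tags in replicate 1, where it ran from 171387850 to 171388000. In replicate 2 the same stretch held a 5′ UTR peak of 11 tags and a CDS peak of 10 tags. The third shared locus, at chr5:171400800-171400850 and mainly in a noncoding exon, had 7 and 19 tags. Of the tall peaks without a partner, one had 13 tags in replicate 1 at chr5:171391700-171391750 and one had 10 tags in replicate 2 at chr5:171405300-171405350. Replicate 1 thus placed 7 of its 8 peaks in the first 5 kb of the gene, whereas replicate 2 also listed peaks toward its end. NPM1 has 50 numbered pseudogenes in the RefSeq table, and only uniquely mapped reads were kept, so reads shared with a copy could be lost and the NPM1 heights are uncertain. A single pseudogene held a single peak in each list, NPM1P26 with 4 tags in replicate 1 and NPM1P48 with 5 tags in replicate 2. The former peak was classed as intron and the latter as antisense, so neither was classed as exonic.

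The core proteins of the box C/D snoRNP differed from each other. FBL encodes fibrillarin, the methyltransferase of the particle. The gene spans 11922 nt at chr19:39834458-39846379 on the minus strand, with 5 sense peaks in replicate 1 and 9 in replicate 2 (7.0 ± 2.83, SD, n = 2). All 5 peaks of replicate 1 were covered by a peak of replicate 2. The highest shared peak, at chr19:39840600-39840650 in CDS, had 9 and 14 tags (11.5 ± 3.54, SD, n = 2). The neighbour at chr19:39840400-39840450 had 7 and 17 tags, and the intron-exon peak at chr19:39840200-39840250 had 4 and 7. All of these lay across an exon edge. The other shared peaks had 7 and 6 tags at chr19:39836550-39836650 and 4 and 12 tags at chr19:39837700-39837750.

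NOP56 encodes a scaffold protein of the same particle that helps to hold fibrillarin in place. It is the shortest of the 10 genes at 5762 nt, at chr20:2652632-2658393 on the plus strand, and had 7 sense peaks in replicate 1 and 13 in replicate 2 (10.0 ± 4.24, SD, n = 2). Per length it carried the most peaks, 12.1 per 10 kb in replicate 1 and 22.6 in replicate 2. NCL followed in replicate 1 with 8.22 and NOLC1 in replicate 2 with 9.58. The highest shared peak of NOP56, at chr20:2653250-2653350, had 10 and 9 tags (9.5 ± 0.707, SD, n = 2). A locus classed mainly as 3′ UTR and partly as CDS, at chr20:2657900-2657950, had 9 and 8 tags. The next, downstream and wholly in CDS at chr20:2658100-2658150, had 5 in each. The 3′ UTR class of the former therefore does not mark the end of the annotated coding sequence. These loci were alike in both libraries, in contrast to a locus at chr20:2654400-2654550 with 4.5 and 9.5 tags. A peak of 12 tags in replicate 2, at chr20:2657050-2657100, had its nearest partner 800 nt away.

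NOP58 encodes the partner of NOP56 in the box C/D particle, and its gene gave few and low peaks. It spans 37899 nt at chr2:202265763-202303661 on the plus strand, and had 2 sense peaks in replicate 1 and 6 in replicate 2 (4.0 ± 2.83, SD, n = 2), which is 0.528 and 1.58 per 10 kb. Heights ran up to 6 tags in replicate 1 and 7 in replicate 2. No peak was shared. Both peaks of replicate 1, with 4 and 6 tags, were mainly intronic and lay at the far end of the gene, whereas those of replicate 2 lay nearer its start, including a 5′ UTR peak of 6 tags at chr2:202265750-202265800.

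DKC1 encodes dyskerin, the pseudouridine synthase of the box H/ACA particle and a part of telomerase. The gene spans 14826 nt at chrX:154762864-154777689 on the plus strand, and had 3 sense peaks in replicate 1 and 7 in replicate 2 (5.0 ± 2.83, SD, n = 2). The replicate 1 peaks had 4, 5 and 5 tags. In replicate 2, 6 peaks had 5 tags and the peak at chrX:154776150-154776200 had 7. The lists did not overlap, as the peaks of replicate 1 all lay upstream of those of replicate 2. NOLC1 encodes a chaperone of snoRNPs found in the nucleolus and Cajal bodies, and here the replicates differed most in number. The gene spans 11482 nt at chr10:102152389-102163870 on the plus strand, with 2 sense peaks in replicate 1 and 11 in replicate 2 (6.5 ± 6.36, SD, n = 2). Both peaks of replicate 1 came back in replicate 2, with 6 and 10 tags at chr10:102159150-102159200 and 6 and 9 tags at chr10:102160200-102160250. Each lay mainly in an intron with some coding bases. The highest peak of the gene, with 12 tags at chr10:102158000-102158050, was listed in replicate 2 alone.

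The ribosome assembly factors also ranged widely. NOP2 encodes an RNA methyltransferase needed for the large ribosomal subunit. The gene spans 11421 nt at chr12:6556871-6568291 on the minus strand and had 8 sense peaks in replicate 1 and 7 in replicate 2 (7.5 ± 0.707, SD, n = 2). No peak of replicate 1 exceeded 5 tags, whereas replicate 2 reached 15 tags at chr12:6566100-6566150, where the nearest peak of replicate 1 was 1650 nt away. The highest shared peak, at chr12:6563300-6563350 in CDS, had 5 and 10 tags. The other 3 shared loci had 4 tags in replicate 1 and 5 to 6.5 in replicate 2.

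NOP14 encodes a factor of the small ribosomal subunit, and had more sense peaks than any other of the set, 11 in replicate 1 and 16 in replicate 2 (13.5 ± 3.54, SD, n = 2). The gene spans 25471 nt at chr4:2937936-2963406 on the minus strand, so per length it had 4.32 and 6.28 per 10 kb, less than NCL, NOP56 and NOP2 in replicate 1 and less than NCL, FBL, NOP56 and NOLC1 in replicate 2. All 7 shared loci had the same bin in both lists. The highest by the lower height, at chr4:2963100-2963150, had 7 and 10 tags (8.5 ± 2.12, SD, n = 2). The widest gap between the replicates was at chr4:2953500-2953550, in CDS, with 5 and 18 tags. Each of the 7 was higher in replicate 2. RRP12 encodes an export and processing factor of the small subunit. Its gene is the longest at 45014 nt, at chr10:97356357-97401370 on the minus strand, and had 6 sense peaks in replicate 1 and 3 in replicate 2 (4.5 ± 2.12, SD, n = 2), or 1.33 and 0.666 per 10 kb. None exceeded 5 tags in replicate 1 or 6 in replicate 2, and none was shared or mainly in CDS. A peak of each replicate lay outside the RefSeq interval of RRP12, the farther by 12280 nt. The other 145 of 147 sense peaks lay inside the interval of their gene.

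**Figure D3:**
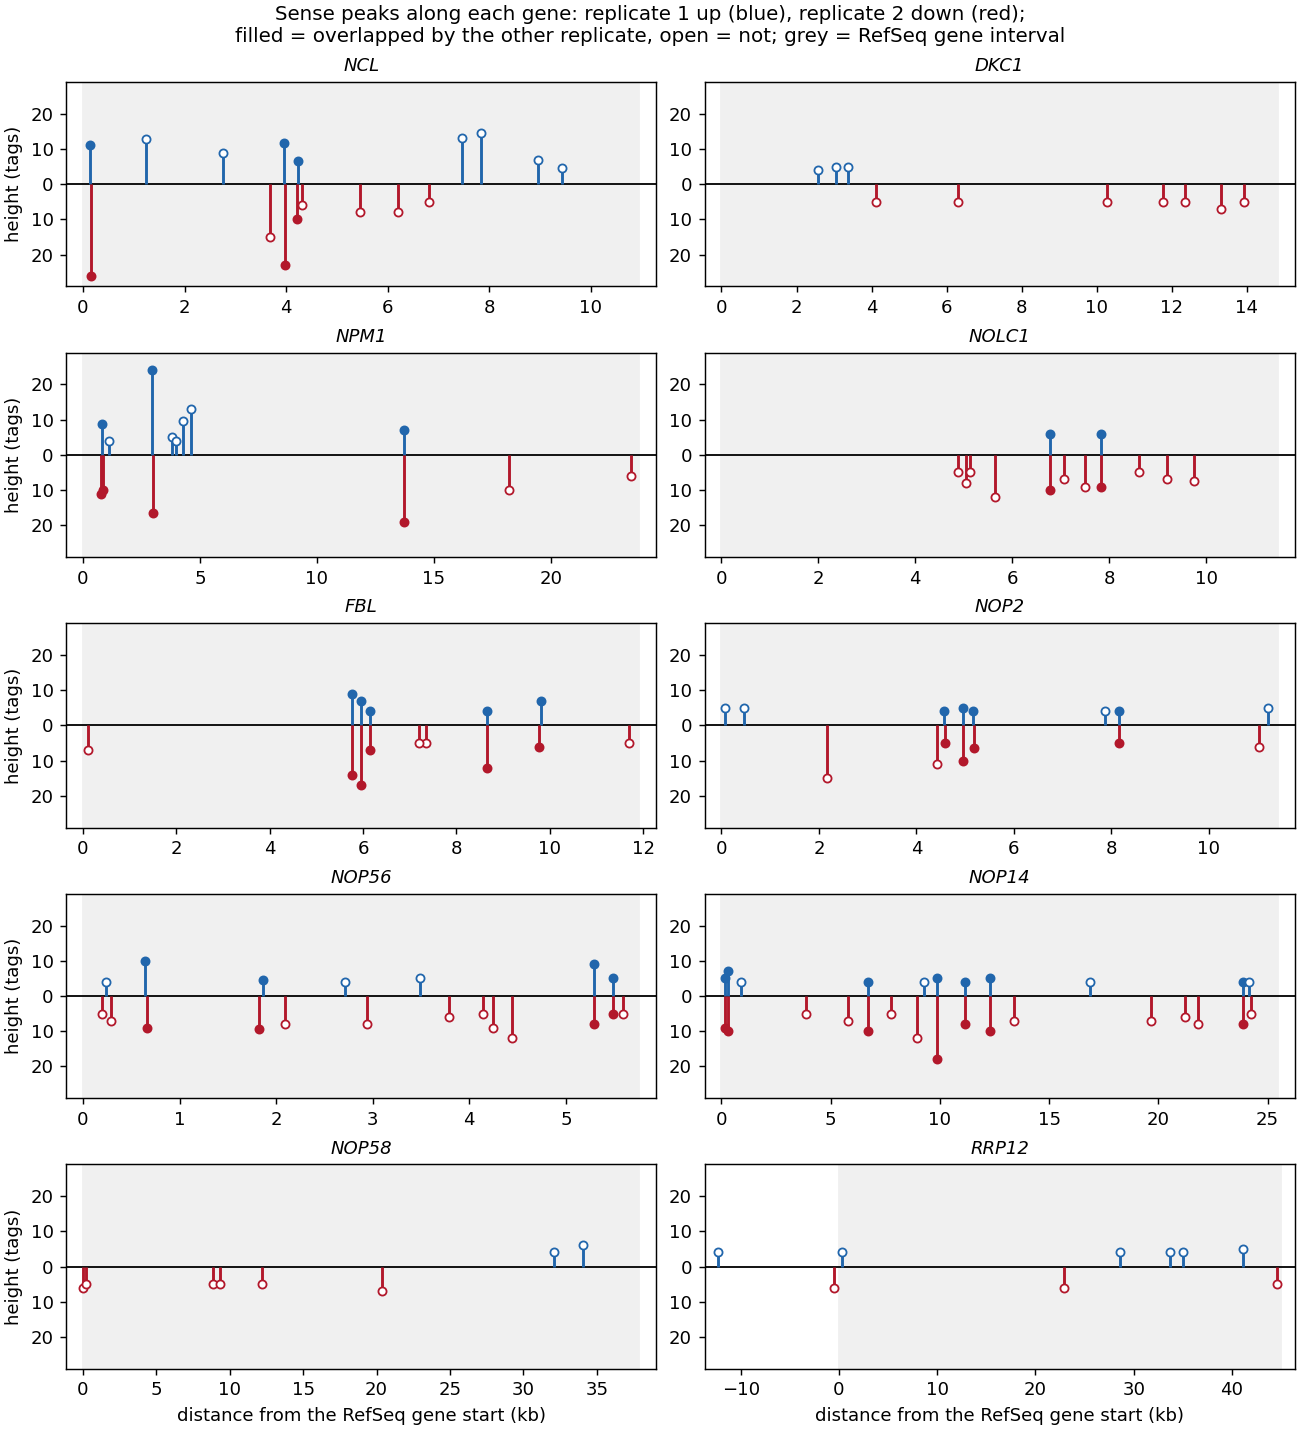
Sense peaks along each of the 10 genes, by distance from the RefSeq gene start in the direction of transcription (horizontal axis, kb), with height in tags upward for replicate 1 (blue) and downward for replicate 2 (red). Filled points are covered by the other replicate, open points are not, and the grey band is the gene interval. FBL has all 5 points of replicate 1 filled, and NOP58, DKC1 and RRP12 have open points alone.

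Without the RRP12 peaks outside its interval, 35 of 60 peaks in replicate 1 (58.3%, Wilson interval 45.7 to 69.9%) and 43 of 85 in replicate 2 (50.6%, 40.2 to 61.0%) lay in the first part of the gene up to its midpoint. Both intervals include an even split. The peaks covered by the other replicate had a higher median, 5.5 tags against 4.5 for the rest in replicate 1 and 10 against 6 in replicate 2. These medians were not computed over all sense peaks. Among peaks that reached 10 tags, replicate 2 covered 4 of 8 from replicate 1, and replicate 1 covered 16 of 23 from replicate 2, beside 73.5% and 62.4% over all sense peaks of that height.

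Whether intronic peaks marked a hosted snoRNA was checked against RefSeq, which places 14 snoRNAs in 4 of the genes. NCL hosts SNORA75, SNORD20 and SNORD82. NOP56 hosts SNORD110, SNORA51, SNORD86, SNORD56 and SNORD57. NOP58 hosts SNORD70, SNORD70B, SNORD11B and SNORD11, and DKC1 hosts SNORA36A and SNORA56. Of the intronic peaks, 4 of 17 in replicate 1 and 9 of 26 in replicate 2 lay in a host gene. None of these overlapped a hosted snoRNA, which allows shares of up to 75.0% of 4 and 33.3% of 9 peaks, so the peaks were too few to set a close limit. Peaks overlapping input peaks had also been removed, so a snoRNA peak that was never called cannot be told apart from a removed one.

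A single sense peak of any class lay on a hosted snoRNA. This NOP56 peak of replicate 1, at chr20:2656100-2656150 with 5 tags, was classed as noncoding exon and lay with 50 nt inside SNORD86 (chr20:2656097-2656182). Replicate 2 listed no peak there. The tall shared NCL peak of 11.7 and 23 tags came closest among the shared loci, as its edge lay 8 nt from SNORD82 (chr2:231460368-231460442) in both replicates without overlap. The miRNA MIR1292 (chr20:2652777-2652842) was overlapped by 42 nt of a NOP56 peak of replicate 2, at chr20:2652800-2652850 with 5 tags. This peak held all 20 bases of hsa-miR-1292-3p and the last 3 of hsa-miR-1292-5p, the sequences shown above. It was classed mainly as noncoding exon, and in replicate 1 the nearest peak lay 8 nt beyond the miRNA. MIR664B, the other hosted miRNA, in DKC1, had no peak on it. Both peaks on small RNAs were low and each was seen in a single library. Peaks of 51 nt cannot tell a small RNA from an exon of the host transcript that contains it.

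Antisense peaks under the same identifiers were few, 5 in replicate 1 and 3 in replicate 2. In replicate 1 there were 2 listed under NCL and 1 each under FBL, NOP58 and NOLC1. In replicate 2 there were 2 under NOP58 and 1 under RRP12. Of the NCL peaks, that at chr2:231483350-231483400 lay outside the RefSeq interval of the gene. Apart from NPM1, the RefSeq table holds 3 numbered pseudogenes of NOP56, 2 of NCL and 1 each of FBL and NOLC1. Of these, 1 of NCL had peaks, 2 of 4 tags in replicate 1.

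A list of 48 other nucleolar and snoRNP genes gave the setting. Of these, 42 could be named among the identifiers, and 37 had a sense peak in both replicates, beside the 59.5% of all identifiers. A gene could be named only through its own peaks, so the 42 are chosen for having some, and 4 of the other 6 had a peak within their interval. With exonic peaks alone the count was 28, again without a share over all identifiers. The named genes had a median of 2.5 sense peaks in replicate 1 and 4 in replicate 2, and 23 of the 37 with a peak in both lists had a shared locus, beside the 27.6% of all such identifiers. A height of 10 tags or more in each library was reached by 3 of them, namely RUVBL2, UBTF and NAT10, beside the 3.96% of all identifiers. These background shares were not matched for the number or class of peaks or for transcript abundance. By role, all 6 assembly factors, all 5 genes of the nucleolar phosphoprotein and RNA polymerase I group, all 4 late small subunit factors and the box C/D gene SNU13 had a peak in both replicates. So did 14 of 18 genes of the small subunit processome and 7 of 11 of the large subunit.

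Of the 3 box H/ACA genes, 2 could be named and neither had a sense peak in both lists. NHP2 had 1 sense peak of 9.5 tags in replicate 2 alone, and NOP10 had 2 of at most 5 tags in replicate 1 alone. Replicate 2 also listed a peak within the NOP10 interval that was not a sense peak under its identifier. GAR1 was the gene without a name. DKC1, the fourth core protein of that particle, had peaks in both lists and no shared locus. The most shared loci were found in RUVBL2, an ATPase of the snoRNP assembly complex, with 9 loci and heights of up to 13 and 17 tags. TCOF1, which encodes the nucleolar phosphoprotein treacle, had 9 loci and up to 9 and 13 tags. UBTF, a transcription factor of RNA polymerase I, also had 9, with up to 16 and 18 tags. These heights are the highest over all sense peaks of each gene, shared or not. Ranked by the lower height, the top shared locus had 13 tags in RUVBL2, 9 in TCOF1 and 10.5 in UBTF. MYBBP1A, a nucleolar protein, and NAT10, an RNA acetyltransferase, had 6 shared loci each. NOP14 with 7 thus stood below 3 genes of the list and above the others.

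**Figure D4:**
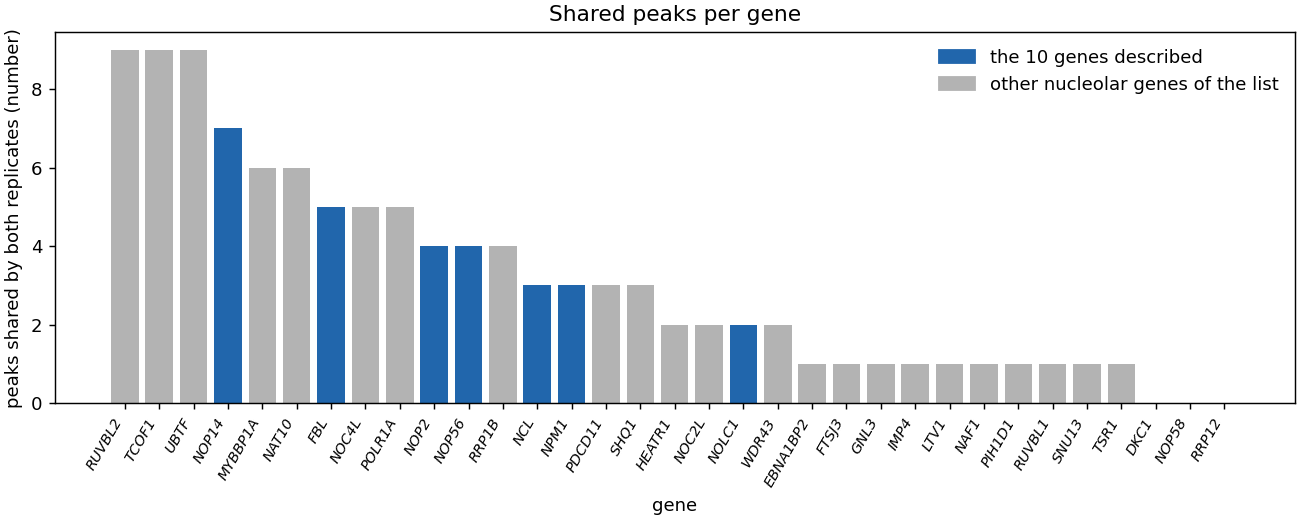
Number of loci shared by both replicates (vertical axis) for the 10 genes described (blue) and the other listed nucleolar genes with at least 1 such locus (grey). RUVBL2, TCOF1 and UBTF have 9 each, NOP14 has 7, and NOP58, DKC1 and RRP12 have none.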

How the data were processed

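The peak lists of 2 IGF2BP2 iRIP libraries were analysed. Inputs, RNA-seq and m6A libraries were not used here. Paired reads of 150 bp had been aligned by the authors with TopHat2. They kept uniquely mapped reads, called peaks in each library by ABLIRC (500 simulations, p under 0.05) and removed peaks overlapping input peaks. The build was GRCh38 per the submitters' processing notes. The deposited height is a signal in tags, and the deposited p-value of each peak served only as a filter. Read numbers are unknown, so heights were not adjusted for depth.

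Each peak was counted in the region with its largest share, ties going to the class listed first. Positions are as deposited, read as half-open intervals. Overlap needed 1 bp on the same strand. Whether listed positions count from 0 or 1 was not settled, so distances to RefSeq features can be off by 1 nt. Members' Ensembl identifiers were checked by position against RefSeq (GRCh38.p14), and each of the 10 led to its own gene. Pathway genes were named where at least 80% of an identifier's CDS and UTR peaks fell in a single protein-coding gene, within 1000 nt, or, without such peaks, where all its peaks fell in a single gene.

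Members, lists and rules were chosen with earlier results of these data known. Named were all members, their highest and highest shared peaks, the 5 listed genes with the most shared loci, and hosted snoRNAs and pseudogenes; tall peaks without a partner, remaining shared loci, the hosted miRNAs and the box H/ACA genes were added after their values were seen. No test was run across samples. Wilson intervals (95%) and the limits for a count of 0 (3 counts) cover counting error only. Python 3.11.15, pandas 2.3.3 and numpy 2.4.6 were used, with functions tested on simulated data. The alternatives were other minimum heights, a p under 0.001, exonic classes only, other overlap rules, assignment by gene interval, the share of peak length in CDS and leaving out a replicate.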

Additional observations from a re-analysis of the deposited data

How the results depend on the processing

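Of 40 values under alternatives, 29 stayed within the range set for them and 11 moved. The ranges were not alike, so a value that stayed is not an unchanged one. Falls from 10 to 7 genes and from 28 to 19 shared loci stayed within range. A CDS share of 62.5%, against 57.5% as listed, counted as moved. A minimum of 10 tags left 3 of the 10 genes present in both lists, a mean of 15.5 sense peaks per replicate, a CDS share of 72.3%, 3 shared loci and 3 genes of the list of other nucleolar genes. A minimum of 5 tags, the lowest height found in both lists, gave a CDS share of 62.5%, with 35 of 61 peaks left in replicate 1 and 19 shared loci. Exonic peaks alone left 7 of the 10 genes in both lists, and so did a p under 0.001. That p left a mean of 33 sense peaks and 12 shared loci, and 63.2% of the replicate 1 peaks were covered by replicate 2. Apart from the presence of genes at 10 tags, values under these settings were not computed over all identifiers or sense peaks. They describe the settings and do not set these genes apart. Counted from replicate 2, the covered share was 33.7%. With replicate 2 left out, 3 genes reached the 10-tag minimum, and with replicate 1 left out, 7 did. These 7 include NCL, NPM1 and NOP56, which met it in both lists. Shares of all identifiers meeting it in a single list were not computed, so neither count sets these genes apart. The causes of these shifts were not tested, beyond the fewer peaks that a minimum leaves. The count of intronic peaks on a hosted snoRNA had no alternative. No paired analysis was possible because the inputs were not analysed and no test was run. Heights depend on library depth, which is unknown, so a higher value in replicate 2 cannot be told apart from more reads. With 2 libraries, a peak absent from a list is not shown to be unbound.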
